A study of Mus musculus with 10 samples.

Results

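The genes described here are the secreted Wnt ligands, their Frizzled receptors and co-receptors, the secreted Wnt antagonists, the R-spondins with their receptors and ubiquitin ligases, and the feedback and nuclear genes that read out the pathway, as measured by bulk RNA-seq in mouse sarcomas. They were chosen by name: every protein-coding gene whose symbol was Wnt, Fzd, Sfrp, Dkk or Rspo followed by a number, together with Lgr4, Lgr5, Lgr6, Znrf3, Rnf43, Lrp5, Lrp6, Ror1, Ror2, Ryk, Wif1, Axin2, Lef1, Tcf7, Nkd1, Nkd2 and Notum. The rule gave 58 genes among 56750 features of the count table, of which 21630 were protein-coding, and no measured value entered it. The members were 19 ligands, 10 Frizzled receptors, 5 co-receptors, 10 secreted antagonists, 9 genes of the R-spondin axis and 5 feedback and nuclear genes.

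The study compared 3 dFLEx CDS tumors (170019, 170024 and 170025) with 2 KP tumors (3800 and 3802). The dFLEx CDS +/- mice carry a CIC::DUX4 fusion gene, the driver of CIC::DUX4 sarcoma (CDS), behind the ubiquitous CAG promoter, and both Cre and FLP recombinase are needed to switch it on. The KP mice carry floxed Trp53 alleles (p53fl/fl), so the groups differ in every driver allele at once, and the labels name none that they share. The dFLEx sarcomas were started by electroporating plasmids for both recombinases into hind limb muscle, whereas the sources used here do not say how the KP sarcomas were started. Each tumor's RNA was split into duplicate libraries, of which 9 of the 10 labelled were analysed (6 dFLEx and 3 KP), duplicates were summed, and the tumor was the replicate. The labels give tumor as the tissue, with no age, treatment or time.

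Wnt ligands are lipid-modified proteins that act over short distances by binding Frizzled receptors together with a co-receptor. With Lrp5 or Lrp6 the signal halts the destruction of β-catenin, which then works with Tcf and Lef factors on target genes such as Axin2, whereas Ror1, Ror2 and Ryk serve β-catenin-independent responses. Sfrp proteins, Wif1 and Notum act on the ligand, Dkk1, Dkk2 and Dkk4 bind Lrp5 and Lrp6, and R-spondins bind Lgr receptors and draw off the ubiquitin ligases Znrf3 and Rnf43, which otherwise remove Frizzled from the cell surface. In limb mesenchyme, cartilage, bone and skeletal muscle these genes pattern tissue and guide repair.

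Library totals ran from 20503474 to 46302223 counts, and a total of 3 counts, taken as the floor for a gene with none, stood at 0.0378 to 0.122 CPM (counts scaled to one common library size) in the 5 tumors. Reads on the CIC::DUX4 contig reached 105, 202 and 423 CPM in the dFLEx tumors, against 0 and 0.244 CPM in the KP tumors. Trp53 stood at 77.5, 85.1 and 104 CPM in dFLEx and at 162 and 82.6 CPM in KP tumors, and a total over the whole gene does not show whether floxed exons were lost. Tumor 3802 stood apart: olfactory and vomeronasal receptor genes, taken as a background, averaged 0.107 CPM per kilobase there and 0.00278 to 0.0239 in the other 4 tumors. In this tumor 20 of the 58 members lay at 10 times the background or more, against 43 to 51 in the others. The duplicates of a tumor differed little, with a median coefficient of variation over members of 4.77% to 10.6%, whereas that between tumors was 63.6% in dFLEx and 77.6% in KP.

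Of the 58 members, 57 had enough counts to be tested, and Wnt8a (2 counts in dFLEx and 3 in KP in all) did not. At an adjusted p under 0.05, 2 members passed, Rspo4 and Wnt7b, both lower in dFLEx tumors, and 45 of all 24743 genes tested (0.182%) did so. At an unadjusted p under 0.05, 13 members were higher in dFLEx and 7 were lower (20 of 57, 35.1%), where 5.65% of all genes were higher and 4.93% were lower. In 16 members all dFLEx values exceeded all KP values (28.1%, against 13.7% of all genes), in 10 they all lay below (17.5%, against 11.7%), and in 31 of those tested the groups overlapped. The median log2 fold change (dFLEx over KP) was 0.19 for members and -0.18 for all genes tested. When each tumor was left out in turn, 10 of the 20 members kept an unadjusted p under 0.05 every time (Wnt7b, Wnt9b, Rspo4, Lgr6, Sfrp1, Sfrp2, Sfrp4, Dkk1, Dkk2 and Dkk3), and the other 10 lost it without at least 1 tumor.

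**Figure D1:**
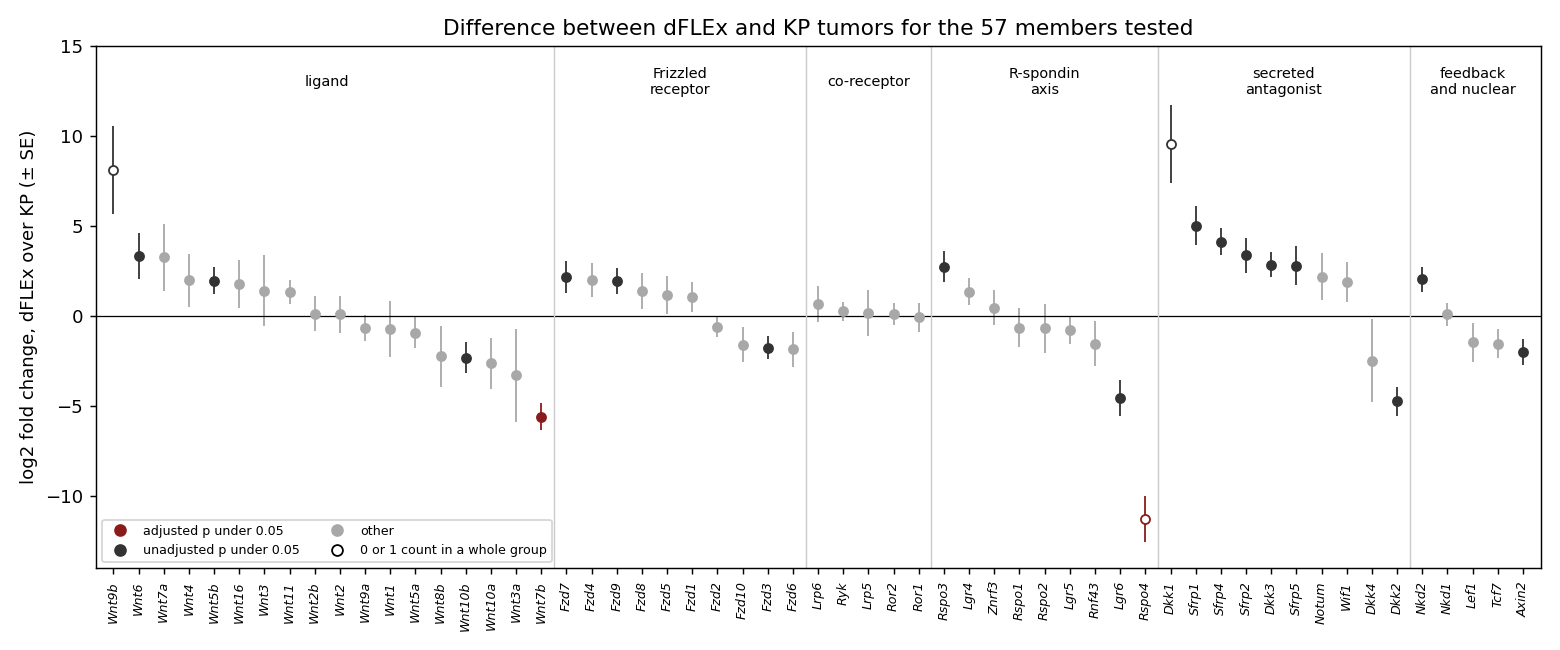
Log2 fold change of dFLEx over KP tumors (y axis, bars are the SE of the edgeR fit) for the 57 members tested, grouped by role along the x axis and ordered within each role. Wnt7b and Rspo4, in red, passed the adjusted threshold, 18 more in black had an unadjusted p under 0.05, and open points mark genes with 0 or 1 count in a whole group, whose fitted value is no measure of size.

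To set sequence beside the values of the R-spondin axis and the antagonists, promoters of 4 members, chosen after their values were seen, were taken from RefSeq (build GRCm38.p6, from 250 bases before to 50 bases after the annotated start, printed on the gene's strand). Entries were found for 39 of the 58 members and for 14 of the 20 with an unadjusted p under 0.05. Rspo4 and Lgr6, a ligand and a receptor of the R-spondin axis, and Dkk2 were lower in dFLEx, and Sfrp2 was higher, at that unadjusted threshold. Capitals mark the 50 bases from the annotated start in these 4.
Rspo4, chr2:151842677-151842976, plus strand: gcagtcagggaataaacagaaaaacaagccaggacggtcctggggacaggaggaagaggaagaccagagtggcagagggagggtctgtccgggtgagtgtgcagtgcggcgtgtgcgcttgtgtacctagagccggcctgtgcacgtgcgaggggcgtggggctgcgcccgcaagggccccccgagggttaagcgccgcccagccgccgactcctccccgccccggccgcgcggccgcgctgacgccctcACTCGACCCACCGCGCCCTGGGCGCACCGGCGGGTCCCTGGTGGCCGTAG
Lgr6, chr1:135105227-135105526, minus strand: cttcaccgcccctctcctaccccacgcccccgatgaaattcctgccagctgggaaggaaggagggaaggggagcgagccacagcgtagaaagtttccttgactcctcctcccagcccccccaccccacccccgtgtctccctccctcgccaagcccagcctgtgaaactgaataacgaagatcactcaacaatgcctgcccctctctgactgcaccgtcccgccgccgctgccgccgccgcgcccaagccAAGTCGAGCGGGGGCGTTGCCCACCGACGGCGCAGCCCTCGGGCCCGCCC
Dkk2, chr3:132085042-132085341, plus strand: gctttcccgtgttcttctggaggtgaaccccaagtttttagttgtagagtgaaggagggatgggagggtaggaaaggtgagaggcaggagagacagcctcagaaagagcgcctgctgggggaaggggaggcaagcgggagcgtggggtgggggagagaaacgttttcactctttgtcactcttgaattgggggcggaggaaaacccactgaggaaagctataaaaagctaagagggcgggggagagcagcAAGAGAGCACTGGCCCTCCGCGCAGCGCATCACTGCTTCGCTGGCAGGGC
Sfrp2, chr3:83766071-83766370, plus strand: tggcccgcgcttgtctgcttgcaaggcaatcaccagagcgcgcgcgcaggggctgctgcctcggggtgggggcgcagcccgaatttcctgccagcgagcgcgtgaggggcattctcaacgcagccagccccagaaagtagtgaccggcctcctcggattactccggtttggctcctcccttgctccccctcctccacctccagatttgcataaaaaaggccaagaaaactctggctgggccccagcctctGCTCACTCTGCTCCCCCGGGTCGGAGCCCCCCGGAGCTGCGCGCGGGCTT

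The Rspo4, Lgr6 and Sfrp2 windows are rich in G and C (71.0%, 67.7% and 66.0%) and in CpG (31, 24 and 22 per 300 bases), whereas that of Dkk2 holds 57.7% G and C and 11 CpG. Across the 47 promoter entries of members the median was 66.7% G and C with 24 CpG, and across all 32851 entries it was 52.7% with 7 CpG. In addition, 3 strings of letters were searched on either strand. The octamer TGAATGAA, a recognised binding sequence of the repressor CIC, was in 1 of 47 member entries (2.13%) and in 1.30% of all, its variant TGAATGGA was in 0 of 47 and in 1.21% of all, and CTTTGAT, a core of Tcf and Lef sites, was in 2 of 47 (4.26%) and in 3.73% of all. The 2 octamers differ at 1 letter, so a match to one is no match to the other. The octamer lay in the Wif1 entry, on the opposite strand, and is shown in capitals as it reads on the gene's strand.
Wif1, chr10:121033754-121034053, plus strand: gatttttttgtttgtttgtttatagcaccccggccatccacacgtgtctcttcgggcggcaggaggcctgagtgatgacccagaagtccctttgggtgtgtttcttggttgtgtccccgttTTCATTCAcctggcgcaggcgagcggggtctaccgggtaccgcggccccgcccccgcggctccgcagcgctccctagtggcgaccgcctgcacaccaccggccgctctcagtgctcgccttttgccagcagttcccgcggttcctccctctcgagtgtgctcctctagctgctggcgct
CTTTGAT lay in 1 of 3 entries of Wnt5b and in 1 of 2 entries of Wnt11. A match of letters is a description of the window and not a site of binding, and no binding was measured here.

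Among the ligands, Wnt7b alone passed the adjusted threshold, and no ligand passed it as higher in dFLEx. Wnt7b (ENSMUSG00000022382; GRCm39 chr15:85419638-85466674), a β-catenin-activating ligand known from lung, vessel and bone development, stood at 3.01, 1.80 and 2.34 CPM in dFLEx tumors 170019, 170024 and 170025 and at 176 and 54.1 CPM in KP tumors 3800 and 3802. The lowest KP tumor thus lay 18.0 times above the highest dFLEx tumor. Means were 2.39 ± 0.605 CPM (SD, n = 3) in dFLEx and 115 ± 85.9 CPM (SD, n = 2) in KP. Wnt7b passed the adjusted threshold as lower in dFLEx (log2 fold change -5.59, SE 0.747, adjusted p 0.0480). That call was lost when tumor 3800 (adjusted p 0.0889, log2 fold change -4.34), 170019 (0.187), 170024 (0.197) or 170025 (0.0894) was left out and was kept without 3802 (0.0123, log2 fold change -6.18). A gene on the opposite strand, AU022754, shares 6.62% of the exonic bases of Wnt7b, and the counting ignored strand.

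Wnt10b, a ligand that favours bone over fat formation, pointed the same way. Its levels were 0.597, 0.798 and 0.592 CPM in dFLEx and 5.21 and 1.30 CPM in KP, with no overlap (log2 fold change -2.30, SE 0.865, unadjusted p 0.0292). That p did not pass after adjustment, and without 3800 the log2 fold change was -0.81 (unadjusted p 0.472). Wnt10a was also below both KP tumors in every dFLEx tumor, at 0.0252 to 0.260 CPM against 0.685 and 0.894 CPM, but its unadjusted p was 0.103.

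Wnt5b, a ligand of cartilage that works largely without β-catenin, was at 20.6, 9.14 and 7.19 CPM in dFLEx and at 3.25 and 3.01 CPM in KP tumors. The groups did not overlap, and the closest tumors were 2.21-fold apart (log2 fold change 1.98, SE 0.730, adjusted p 0.377). Wnt6, an ectodermal ligand that acts on somites, was at 16.7, 2.62 and 1.41 CPM in dFLEx and 0.416 and 0.975 CPM in KP. Tumor 170019 stood far above the rest (log2 fold change 3.33, SE 1.26, adjusted p 0.395), and without it the log2 fold change was 1.48 (unadjusted p 0.245). Wnt9b, known from kidney and craniofacial development, gave 1.39, 0.243 and 0.252 CPM in dFLEx (90 counts in all) and no count in either KP tumor. Its lowest dFLEx tumor stood at 1.99 times the highest KP floor, 0.122 CPM (adjusted p 0.282). Each mate of a pair was counted, so this is no lower bound on the difference.

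Wnt5a, the main β-catenin-independent ligand of limb outgrowth, and Wnt4, a ligand of muscle and gonad development, were among the best-measured ligands but did not separate the groups. Wnt5a was at 26.6, 25.1 and 71.5 CPM in dFLEx and at 135 and 19.8 CPM in KP tumors. Wnt4 was at 42.9, 20.1 and 3.67 CPM in dFLEx and at 0.296 and 10.9 CPM in KP tumors. Each thus varied more between tumors of one model than between the models. Of the 18 ligands tested, 3 had an unadjusted p under 0.05 with higher and 2 with lower levels in dFLEx. Across all genes 5.65% and 4.93% did so. Of the ligands, 5 lay wholly above (27.8%, against 13.7% of all genes), 3 wholly below (16.7%, near the 11.7% of all genes), and 10 overlapped. Wnt7a and Wnt11 were the other ligands wholly above, the former with no count in KP tumor 3800 and 6 in 3802.

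Because length differs between genes, levels of different ligands were compared per kilobase of exon. The 19 ligands summed to 36.9, 18.1 and 20.7 CPM per kilobase in dFLEx and to 63.5 and 23.8 in KP tumors, so the summed levels overlapped. What differed was the leading ligand. Wnt7b gave 56.4% and 46.3% of the ligand sum in the KP tumors and 1.66% to 2.32% in the dFLEx tumors. In 170019 and 170024 Wnt4 led, with 27.7% and 26.6%, and in 170025 Wnt5a led, with 44.3%.

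**Figure D2:**
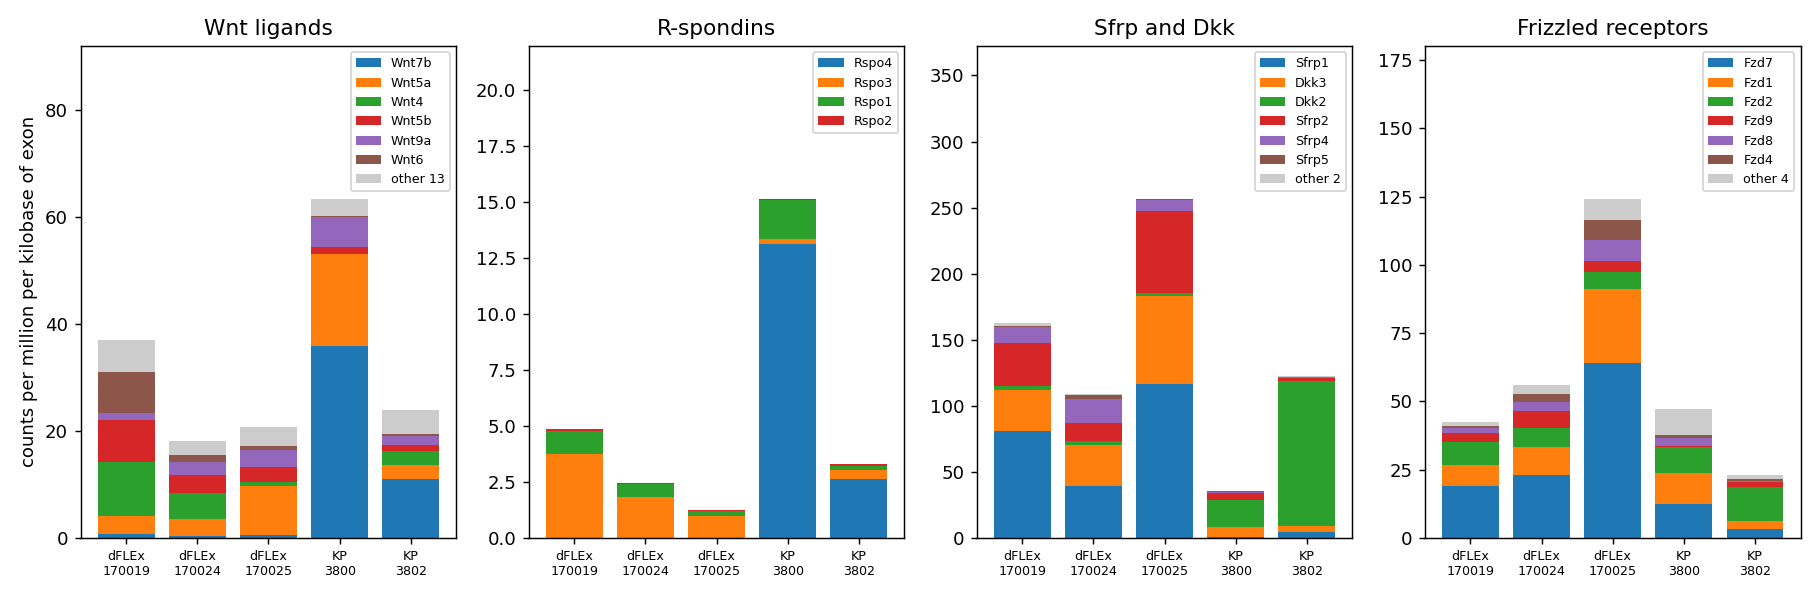
Summed level of Wnt ligands, R-spondins, Sfrp and Dkk genes, and Frizzled receptors in each tumor, in CPM per kilobase of exon (linear y axis from 0, scaled per panel), split by gene. Wnt7b and Rspo4 fill much of the KP bars and are thin or unseen in dFLEx, and Dkk2 gives 90.1% of the Sfrp and Dkk sum in KP tumor 3802.

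The R-spondin axis held the member with the widest gap between the groups. Rspo4 (ENSMUSG00000032852; GRCm39 chr2:151684847-151716588), a Wnt amplifier known for nail formation, gave 0, 0 and 1 count in the 3 dFLEx tumors and 2312 and 152 counts in KP tumors 3800 and 3802. In CPM these are 0, 0 and 0.0126 in dFLEx and 31.1 and 6.18 in KP. The ratio of the pooled KP to the pooled dFLEx level was 4410 (95% interval 791 to 174240 if every read were independent). Each mate of a pair was counted, so the interval is too narrow even for counting error. Rspo4 passed the adjusted threshold (adjusted p 0.0426), as Wnt7b did, and lost the call without tumor 3800 (adjusted p 0.0724, fitted log2 fold change -9.46), 170019 (0.183), 170024 (0.150) or 170025 (0.0786, fitted log2 fold change -12.84), while it was kept without 3802 (0.00962, fitted log2 fold change -12.01).

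Rspo3, the R-spondin known from vessels and placenta, had the opposite pattern, with 11.6, 5.57 and 2.94 CPM in dFLEx and 0.752 and 1.26 CPM in KP tumors. The groups did not overlap (log2 fold change 2.74, SE 0.863, adjusted p 0.281). Per kilobase, Rspo3 made up 74.1% to 77.5% of the 4 R-spondins in each dFLEx tumor and 1.61% and 12.4% in KP tumors, where Rspo4 made up 86.5% and 79.4%. A gene on the opposite strand, Gm48159, shares 13.1% of the exonic bases of Rspo3. Rspo1 overlapped between groups, and Rspo2 stayed at or below 0.406 CPM in all 5 tumors.

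Lgr6, an R-spondin receptor of skin and bone progenitors, was at 1.64, 1.13 and 2.09 CPM in dFLEx and at 68.8 and 6.79 CPM in KP tumors. Both KP tumors lay above all dFLEx tumors, but 10.1-fold apart from each other (log2 fold change -4.54, SE 0.978, adjusted p 0.125). The size rested on 3800: without it the log2 fold change was -1.90 (adjusted p 0.394), without 3802 it was -5.39 (0.0144), and without any one dFLEx tumor the adjusted p was 0.220 to 0.399. Lgr4, the broadly expressed receptor of this family, lay above KP in every dFLEx tumor by a small margin, at 8.04, 11.3 and 25.8 CPM against 6.86 and 4.79 CPM, with an unadjusted p of 0.0981. Lgr5, the stem cell receptor, and the ubiquitin ligases Znrf3 and Rnf43 overlapped between groups. In all, 1 of the 9 genes of the axis had an unadjusted p under 0.05 with a higher and 2 with a lower level in dFLEx. Across all genes 5.65% and 4.93% did so.

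Among the secreted antagonists, the 4 Sfrp genes, Dkk1 and Dkk3 were higher in dFLEx at an unadjusted p under 0.05 and Dkk2 was lower, so that 7 of 10 reached that threshold (5.65% and 4.93% of all genes in the respective directions). None passed the adjusted threshold in the edgeR fit. In DESeq2 on the same tumor sums 12 members passed it, as did 3.16% of all genes. The antagonists among them were Sfrp1, Sfrp2, Sfrp4, Dkk1, Dkk2 and Dkk3, with DESeq2 adjusted p from 5.88e-07 to 0.00306. Members of other roles passed there too, such as Lgr6 (3.41e-05), Rspo3 (0.0355) and Wnt6 (0.0362). Sfrp1 (GRCm39 chr8:23901518-23939648), a decoy for Wnt ligands, had the highest mean level per kilobase of all 58 members, and stood at 354, 173 and 508 CPM in dFLEx and at 2.71 and 18.5 CPM in KP tumors. The lowest dFLEx tumor was 9.33 times the highest KP tumor (log2 fold change 5.02, SE 1.08, adjusted p 0.125). Leaving out 3802 gave a log2 fold change of 7.01 (adjusted p 0.0316), leaving out 3800 gave 4.39 (0.216), and leaving out a dFLEx tumor gave an adjusted p of 0.192 to 0.287. Sfrp4, a family member expressed in bone, was at 52.3, 74.7 and 35.4 CPM in dFLEx and at 2.49 and 3.66 CPM in KP, 9.67-fold apart at the nearest (log2 fold change 4.14, SE 0.726, adjusted p 0.0877).

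Sfrp2, a fibroblast and limb mesenchyme gene, was at 69.4, 29.7 and 135 CPM in dFLEx and at 11.7 and 3.33 CPM in KP tumors (log2 fold change 3.37, SE 0.948, adjusted p 0.222). Sfrp5, the last of the 4 members with an Sfrp symbol, was at 1.69, 6.14 and 1.06 CPM in dFLEx and at 0.510 and 0.325 CPM in KP (log2 fold change 2.81, SE 1.07, adjusted p 0.403). In neither did the groups overlap, although both varied several-fold among the dFLEx tumors. In 3802 Sfrp5 stood at only 1.60 times the background of that tumor. A gene on the opposite strand, Gm26771, shares 17.6% of the exonic bases of Sfrp2. Summed per kilobase, the 4 Sfrp genes gave 127, 74.4 and 188 CPM per kilobase in dFLEx and 6.91 and 6.83 in KP tumors, so no dFLEx tumor was near the KP values. Frzb, a relative of the family without an Sfrp symbol, was not in this sum. It overlapped between groups, at 1.32, 1.09 and 0.907 CPM in dFLEx and 0.900 and 1.42 CPM in KP (log2 fold change -0.07).

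The Dkk genes divided. Dkk3, a divergent member of the family that is not a typical Lrp5 and Lrp6 inhibitor, was at 105, 104 and 226 CPM in dFLEx and at 25.0 and 14.7 CPM in KP tumors (log2 fold change 2.87, SE 0.698, adjusted p 0.169). Dkk1, the classical Lrp5 and Lrp6 inhibitor, gave 154, 48 and 38 counts in dFLEx tumors, or 3.83, 0.832 and 0.479 CPM, and none in either KP tumor. Its lowest dFLEx tumor stood at 3.93 times the highest KP floor (adjusted p 0.167), again no lower bound because each mate was counted.

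Dkk2 (GRCm39 chr3:131791053-131886065), an Lrp6-binding modulator, was at 10.8, 10.2 and 6.68 CPM in dFLEx and at 77.0 and 409 CPM in KP tumors. The KP tumors lay wholly above, 7.13-fold apart from dFLEx at the nearest (log2 fold change -4.72, SE 0.810, adjusted p 0.0840). Per kilobase, Dkk3 made up 87.2% to 97.1% of the 4 Dkk genes in dFLEx tumors, and Dkk2 made up 73.6% and 95.4% in KP tumors. Sfrp and Dkk genes together summed to 162, 109 and 257 CPM per kilobase in dFLEx and to 35.1 and 123 in KP tumors, so that this sum overlapped between groups, unlike the Sfrp sum. Wif1, Notum and Dkk4 overlapped between the groups too. For Wif1, tumor 170025 at 0.642 CPM lay below KP tumor 3802 at 1.46 CPM.

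**Figure D3:**
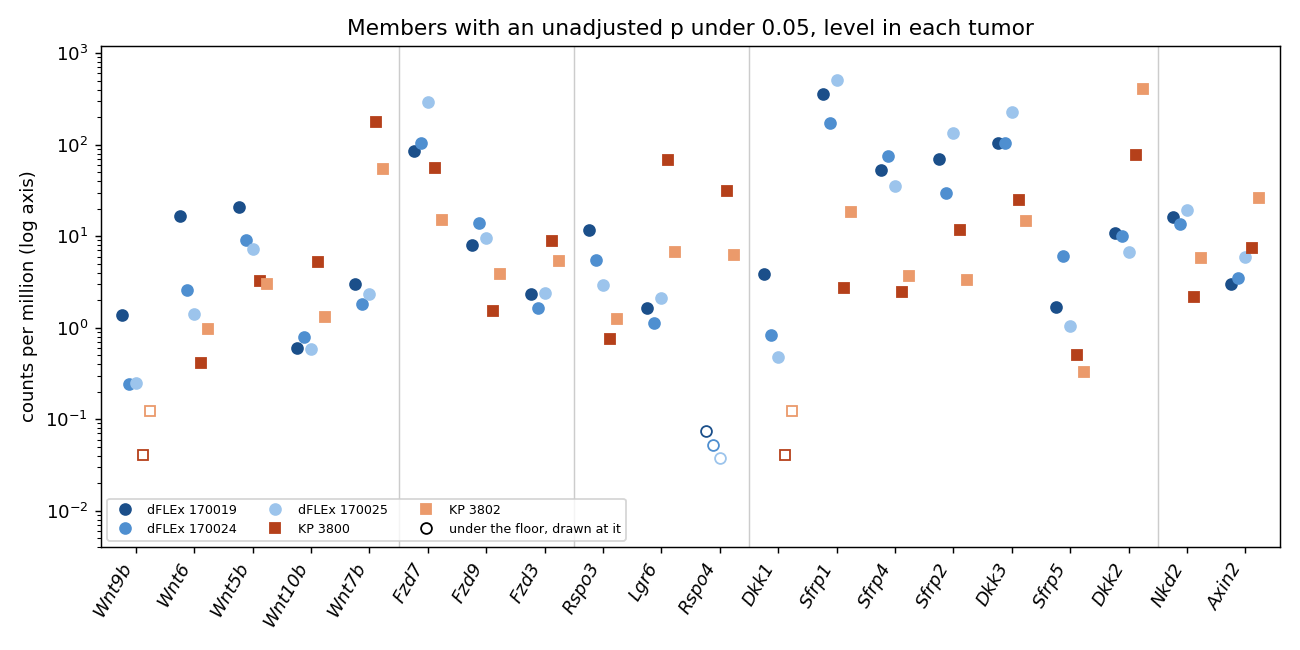
Level in CPM (log y axis) of the 20 members with an unadjusted p under 0.05 in each of the 5 tumors, dFLEx as blue circles and KP as orange squares, with vertical lines between roles. Open symbols lie under the floor of 3 counts and are drawn at it. In all 20 genes the circles and the squares do not overlap, from Axin2, where the closest tumors are 1.25-fold apart, to Rspo4. The genes were picked by that p from these same values, which favours such separation, so it is no separate result.

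Markers of several cell types also differed between the groups. In bulk tumors fewer cells of a type and less RNA per cell cannot be told apart. Summed chondrocyte markers were 753 to 2513 CPM in dFLEx and 157 and 175 CPM in KP tumors. Of these genes 5 of 6 lay wholly above KP, and Sox9 lay wholly below. Sox9 alone gave 155 and 132 CPM of the sums in KP tumors 3800 and 3802. Osteoblast markers were 112 to 440 CPM against 86.3 and 17.5 CPM (3 of 6 wholly above, 1 wholly below, and Bglap at 0 in 3800), and adipocyte markers were 184 to 236 CPM against 6.92 and 79.0 CPM (4 of 5 above). Skeletal muscle markers were 6039 to 24155 CPM against 1361 and 3089 CPM (6 of 8 above). Fibroblast markers were 2591 to 8917 CPM against 2453 and 1655 CPM (3 of 6 above). Endothelial markers were 221 to 552 CPM against 146 and 86.7 CPM (3 of 6 above). The sums of all these lists thus did not overlap between the groups. Of all genes tested, 13.7% lay wholly above KP and 11.7% wholly below. In the other direction, macrophage markers were 657 to 856 CPM in dFLEx and 1471 and 4488 CPM in KP tumors, with 5 of 7 genes wholly below. Keratinocyte markers, of interest beside Lgr6 and Rspo4, overlapped (7.95 to 47.0 CPM against 9.24 and 38.3 CPM). The part of these cell types in the Wnt genes was not tested.

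Of the Frizzled receptors, 2 of 10 had an unadjusted p under 0.05 with higher and 1 with lower levels in dFLEx. Across all genes 5.65% and 4.93% did so. Fzd7, the most abundant of the family by mean level per kilobase and a receptor of muscle and mesenchymal progenitors, was at 85.8, 105 and 291 CPM in dFLEx and at 56.3 and 14.9 CPM in KP tumors. The groups did not overlap, but the nearest tumors, 170019 and 3800, were only 1.52-fold apart (log2 fold change 2.17, SE 0.869, adjusted p 0.423). Fzd9, a receptor of bone and nerve, was at 8.11, 13.98 and 9.60 CPM in dFLEx and at 1.53 and 3.90 CPM in KP (log2 fold change 1.97, SE 0.723, adjusted p 0.376). Fzd3, which acts in planar polarity and axon growth, was at 2.34, 1.63 and 2.41 CPM in dFLEx and at 8.96 and 5.32 CPM in KP (log2 fold change -1.75, SE 0.635, adjusted p 0.368).

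Fzd2 was close to even, at 30.2, 26.3 and 22.8 CPM in dFLEx and 34.1 and 45.8 CPM in KP tumors, and although every dFLEx tumor lay below, its unadjusted p was 0.306. Fzd1 overlapped, at 32.8, 42.0 and 113 CPM in dFLEx and 47.8 and 11.9 CPM in KP. The other 5 Frizzled genes, Fzd4, Fzd5, Fzd6, Fzd8 and Fzd10, overlapped as well. Summed per kilobase, the 10 receptors gave 42.3, 56.0 and 124 CPM per kilobase in dFLEx and 47.1 and 23.1 in KP tumors, with 170019 below 3800.

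None of the 5 co-receptors separated the groups, and the smallest adjusted p among them was 0.921. Ryk, a Wnt-binding receptor of the β-catenin-independent branch, was the steadiest of the 15 most abundant members, at 137, 139 and 105 CPM in dFLEx and at 97.1 and 113 CPM in KP tumors. Lrp5, a β-catenin branch co-receptor, ran from 12.3 CPM (170019) through 43.4 and 192 CPM in dFLEx and stood at 136 and 9.31 CPM in KP tumors. Lrp6, its close relative, was at 18.6, 42.0 and 121 CPM in dFLEx and at 65.5 and 10.7 CPM in KP. For both, 170025 and 3800, one tumor from each model, were the highest, and the spread within a model exceeded the difference between models. The same pair were the highest in 10 of 57 members (17.5%, against 22.3% of all genes tested), among them Fzd1, Wnt5a, Tcf7 and Znrf3. Tumors 170025 and 3800 also had the fewest features with a count, 28203 and 27895 against 33717 to 36904, and the part of this in the levels was not tested.

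The feedback and nuclear genes did not move one way. Axin2, a direct β-catenin target and brake of the pathway, was at 2.99, 3.47 and 5.98 CPM in dFLEx and at 7.48 and 25.9 CPM in KP tumors. Every dFLEx tumor lay below, with the nearest, 170025 and 3800, 1.25-fold apart (log2 fold change -2.01, SE 0.725, adjusted p 0.366). A gene on the opposite strand, Gm11670, shares 3.80% of the exonic bases of Axin2. Without 3802 the log2 fold change of Axin2 was -0.83 (unadjusted p 0.299). Nkd2, a Dishevelled-binding antagonist, was at 16.2, 13.5 and 19.6 CPM in dFLEx and at 2.18 and 5.77 CPM in KP (log2 fold change 2.05, SE 0.702, adjusted p 0.328). Its relative Nkd1 was at 4.30, 2.91 and 5.09 CPM in dFLEx and at 4.12 and 3.49 CPM in KP, with overlap.

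Tcf7 and Lef1, the nuclear partners of β-catenin that T cells also express, overlapped between groups. Tcf7 was at 5.75, 6.29 and 7.77 CPM in dFLEx and at 32.8 and 5.04 CPM in KP, so that only 3800 was high. Lef1 was at 5.55, 1.53 and 0.378 CPM in dFLEx and at 3.44 and 10.2 CPM in KP tumors, highest in 3802. Summed T cell markers were 12.4 to 20.8 CPM in dFLEx and 17.2 and 63.0 CPM in KP tumors, with 4 of 7 genes wholly below KP in dFLEx. The part of T cells in these 2 genes was not tested.

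Other genes of the pathway were read from a list of 68 symbols, 67 of which were found and tested. At an unadjusted p under 0.05, 10 were higher and 5 were lower in dFLEx (15 of 67, 22.4%, against 10.6% of all genes in either direction). The groups did not overlap in 17 that lay above KP (25.4%, against 13.7%) and in 9 that lay below (13.4%, near the 11.7% of all genes), and the median log2 fold change was 0.26. Gpc3, a glypican that holds Wnt and hedgehog ligands at the surface, was the 1 gene past the adjusted threshold. It stood at 444, 903 and 1489 CPM in dFLEx and at 1.07 and 3.54 CPM in KP tumors, so that all dFLEx tumors lay far above (log2 fold change 8.69, SE 1.11, adjusted p 0.0480). Its call was lost without 3800 (adjusted p 0.0901), 170019 (0.179), 170024 (0.155) or 170025 (0.0582), and under scaling by library totals (0.0612) or the upper quartile (0.0720); without 3802 it was kept (0.0166, log2 fold change 9.79). Of the 15 genes, 7 kept an unadjusted p under 0.05 whichever tumor was left out (Gpc3, Igfbp4, Cthrc1, Tpbg, Reck, Pygo1 and Twist1).

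Among the extracellular genes of that list, Igfbp4, a binding protein that also blocks Wnt receptors, was at 2518 to 4904 CPM in dFLEx and 479 and 523 CPM in KP (adjusted p 0.117), and Cthrc1, a matrix protein of the polarity branch, was at 98.1 to 173 CPM against 24.6 and 19.5 CPM (0.166). Tpbg, a Wnt inhibitor at the membrane, was at 5.39 to 6.17 CPM in dFLEx and 40.1 and 25.0 CPM in KP (0.144), and Apcdd1, another membrane inhibitor, was at 4.82 to 12.7 CPM against 148 and 17.9 CPM (0.216). The first pair lay wholly above KP and the second wholly below it. For Apcdd1 the log2 fold change went from -3.31 to -0.93 without 3800 (adjusted p 0.528) and to -4.12 without 3802 (0.0327). The Frizzled4 ligand norrin, encoded by Ndp, was at 1.94 to 2.49 CPM in dFLEx and 24.9 and 5.93 CPM in KP (0.202), and its log2 fold change of -2.80 was -1.25 without 3800 (0.440) and -3.47 without 3802 (0.0422). Reck, a Wnt7-specific co-receptor subunit, was at 11.7 to 24.0 CPM in dFLEx and 3.06 and 1.87 CPM in KP (0.204).

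In the nuclear part of the list, Tcf7l1, Tle2, Tle4 and Pygo1 had higher and Pygo2 lower levels in dFLEx at an unadjusted p under 0.05. These came from 13 genes (38.5%, against 10.6% of all genes in either direction). Pygo1, a β-catenin cofactor, was at 12.2 to 21.8 CPM in dFLEx and 1.49 and 2.89 CPM in KP (adjusted p 0.155), while its paralogue Pygo2 was at 62.1 to 97.1 CPM against 134 and 373 CPM (0.411). The repressors Tcf7l1, Tle2 and Tle4 were at 58.5 to 119, 20.2 to 31.6 and 15.6 to 36.0 CPM in dFLEx, above KP in every tumor (adjusted p 0.366, 0.282 and 0.384). Ptk7, of the planar polarity branch, was at 206 to 600 CPM against 123 and 19.9 CPM (0.442). Of the genes often read as targets beside Axin2, Twist1 was at 82.2 to 126 CPM in dFLEx and 24.1 and 12.1 CPM in KP (0.196), and Cd44 was at 101 to 186 CPM against 568 and 279 CPM (0.425).

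In the intracellular core, 0 of the 16 Dishevelled and destruction complex genes had an unadjusted p under 0.05 in the edgeR fit, against 10.6% of all genes. Their median log2 fold change was 0.04. Ctnnb1, which encodes β-catenin, was at 60.9, 202 and 712 CPM in dFLEx and at 525 and 19.7 CPM in KP tumors, again highest in 170025 and 3800.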

How the data were processed

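The authors trimmed reads with Trimmomatic (0.39), aligned them with STAR (2.7.10a) to mm39 extended by a CIC::DUX4 contig, and deposited raw counts per gene made with featureCounts (Subread 2.0.3); tool names and versions are those of the submitters' processing notes and the file header. These deposited counts cover 56750 features and carry no normalization. Counting ignored strand, left out reads on several genes or with several alignments, and counted each mate of a pair. Reads are thus not independent molecules. The interval given for Rspo4 takes them as independent, so it covers less than the counting error and no spread between tumors. The authors named DESeq2 for their own comparison.

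From there, symbols were joined by identifier to GENCODE M39 (56017 features). Duplicate libraries were summed per tumor, which left 3 dFLEx and 2 KP tumors. Genes passed filterByExpr, were scaled by TMM and compared with edgeR (4.0.16) glmQLFit and glmQLFTest in R (4.3.3), with Benjamini-Hochberg adjustment over all 24743 genes tested and a threshold of 0.05. SE is the absolute log2 fold change over the square root of F. The script was tested on simulated data. Levels are TMM-scaled CPM, divided by exon length in kilobases where genes are compared. Adjusted p-values in the text are from this fit unless another test or setting is named. Nothing says that the tumors came from separate litters, so p-values measure the spread between these tumors alone.

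The members and lists were chosen with earlier results of these data known. Members with an unadjusted p under 0.05 are given in full, and the 15 highest per kilobase and those wholly apart with a mean of at least 1 CPM and an absolute log2 fold change of at least 2 are given by tumor. Listed pathway genes are named where their unadjusted p was under 0.05. Ctnnb1, Frzb, the transgene and Trp53 were read as checks or beside the members. Members near an edge of a group were named after their values were seen. The alternatives were other tests (DESeq2 1.42.0, limma 3.58.1), units of replication, scalings, filters, a background subtraction and leaving out each tumor. For 3802 the second library was not analysed here, and protein sequences were not used here. A further allele of the KP genotype is not reported here.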

Additional observations from a re-analysis of the deposited data

How the results depend on the processing

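No gene with an unadjusted p under 0.05 among the members and listed pathway genes changed direction under any of the alternatives (336 values of 20 members and 255 of 15 other pathway genes). Frzb was not among the genes followed. Treating duplicate libraries as independent samples raised the calls most: DESeq2 on 9 libraries called 4828 genes and 25 members at an adjusted p under 0.05, with 32 members at an unadjusted p under 0.05 (58.2%, against 16.7% of all genes), and edgeR on 9 libraries called 3344 genes and 22 members. With the duplicate number as a replicate block edgeR called 2476 genes and 15 members. That number only counts duplicates of a tumor and pairs no dFLEx tumor with a KP tumor. DESeq2 on tumor sums called 1404 genes and 12 members, limma-voom with a random tumor effect called 543 genes and 5 members (Rspo4 not among them, adjusted p 0.0764), testing without a filter called 880 genes and 10 members, and a mean of at least 1 CPM called 80 genes, against 45 genes and 2 members in the main analysis. Leaving out 1 tumor gave 0 to 414 genes and 0 to 4 members called by edgeR, with 14 to 22 members at an unadjusted p under 0.05 (25.0% to 39.3% of members tested, against 6.18% to 14.9% of all genes). The highest counts came without 3802, the shallowest tumor with the highest background, 0 genes were called without 170019 or 170024, and 0 members were called when any tumor but 3802 was left out. An arm left with 1 tumor is assumed to vary like the other. Scaling by library totals or the upper quartile shifted the median of all genes by -0.30 and -0.21 on the log2 scale and kept both member calls. Of the 20 members with an unadjusted p under 0.05, 20 kept it after background subtraction and 18 under library totals. With a mean of at least 1 CPM 16 kept it. Lower members were not tested there, while Fzd9 was tested and had an unadjusted edgeR p of 0.0609. Under the upper quartile 15 of the 20 members kept it, and in limma-voom 12 did. Beyond the smaller numbers of samples or genes in some settings, the cause was not tested. With 3 tumors against 2, and 0.122 CPM as the floor in 3802, members under about that level cannot be compared. The background of 3802, 0.107 CPM per kilobase, exceeds that floor in a gene of several kilobases, so levels somewhat above it are also uncertain there. In 3802, Wnt10a, Wnt10b, Wnt11, Rspo3, Fzd3 and Wnt6 stood at only 3.40 to 4.17 times the background. Pygo1 and Reck stood there at 3.42 and 3.67 times. Sfrp5 stood at 1.60 times, and Wnt7a and Rspo2 lay below the background, at 0.721 and 0.745 times.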
